A study of Homo sapiens with 8 samples.

Results

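The 10 genes described here are the interferon lambda ligand genes IFNL1, IFNL2 and IFNL3, the receptor genes IFNLR1, IL10RB, IFNAR1 and IFNAR2, the double-stranded RNA sensor genes TLR3 and IFIH1, and MAVS, the adaptor gene that acts below the cytosolic sensors. They were taken by symbol from the 60675 genes of the deposited tables, and all 10 were found. The set was put together with results of these same samples in view, so the levels of the 10 genes are given as a description, without p-values, and nothing is read from which of them the fit called. Of 142 other listed genes of interferon signaling and nucleic acid sensing, 114 were tested. IFNL1 and IFIH1 were higher in all samples of the high-passage cells than in those of the low-passage cells, TLR3 was low in the cells of the highest passage, and MAVS and all 4 receptor genes were present in every sample.

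RNA-seq was done on H9 (WA09) human embryonic stem cells (hESCs), an established line, kept without feeder cells on Matrigel in mTeSR1 medium, with no treatment named in the labels. P1 hESCs were in passage 40s, P2 in passage 100s, P3 in passage 200s and P4 in passage 300s, with 2 samples (1 and 2) of each. P1 and P2 are called the early lines here, and P3 and P4 the late lines (4 samples each). The study describes P3 and P4 hESCs as culture-adapted cells with a copy number gain on the long arm of chromosome 20. Since all groups descend from 1 line, the passage number, the gained copies and the history of each culture cannot be told apart. The sources used here do not say whether samples 1 and 2 were separate cultures, so the p-values measure only the spread between these samples.

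Each sample held 26874899 to 38095600 counts. The share of mitochondrially encoded counts ran from 5.89% to 18.5% and was highest in samples P1-2, P3-1 and P4-1. The undifferentiated markers had a summed level of 2627 to 3805 TPM in the early lines and of 2756 to 4020 TPM in the late lines, and none of these 8 genes separated the groups.

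Interferon lambda, also called type III interferon, is a secreted antiviral cytokine that signals through a receptor made of IFNLR1 and IL10RB, while type I interferon uses IFNAR1 and IFNAR2. Both receptors activate the kinases JAK1 and TYK2 and transcription factors such as STAT2 and IRF9, which switch on interferon-stimulated genes. Interferon genes themselves are switched on when sensors such as MDA5 (the product of IFIH1) and RIG-I in the cytosol, or TLR3 in endosomes, bind double-stranded RNA and pass the signal through MAVS or TICAM1 to interferon regulatory factors (IRFs). Pluripotent cells are known for a weak interferon response compared with differentiated cells.

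The 3 ligand genes lie on chromosome 19 of GRCh38 in the GENCODE 29 annotation. IFNL3 spans 39243553 to 39245129 on the minus strand, IFNL2 spans 39268514 to 39270092 on the plus strand, and IFNL1 spans 39296325 to 39298673 on the plus strand. The sequences before the starts of IFNL1, IFNL2, IFNL3 and IFIH1 are shown because these genes of the set had more counts in the late lines, and because each holds at least 1 match to a spaced double GAAA element of the kind that IRFs bind. The sequences are from RefSeq on GRCh38.p14, are written 5′ to 3′ on the strand of the gene, and end before the start of both the RefSeq and the GENCODE transcript. The windows are chr19:39296157-39296324 (plus strand) for IFNL1, chr19:39268146-39268395 (plus strand) for IFNL2, chr19:39245251-39245500 (minus strand) for IFNL3 and chr2:162318704-162318934 (minus strand) for IFIH1. Capitals mark the bases of each match on either strand, a match being GAAA, 2 bases of any kind and GAAA again, or its reverse complement.
IFNL1: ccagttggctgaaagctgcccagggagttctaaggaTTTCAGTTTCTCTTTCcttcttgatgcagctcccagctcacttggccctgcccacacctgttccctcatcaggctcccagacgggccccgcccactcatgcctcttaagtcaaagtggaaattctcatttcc
IFNL2: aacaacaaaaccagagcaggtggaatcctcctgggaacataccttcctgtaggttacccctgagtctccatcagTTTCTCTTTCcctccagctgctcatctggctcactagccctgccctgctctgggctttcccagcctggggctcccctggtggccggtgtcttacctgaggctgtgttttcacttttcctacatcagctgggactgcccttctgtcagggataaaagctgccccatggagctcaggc
IFNL3: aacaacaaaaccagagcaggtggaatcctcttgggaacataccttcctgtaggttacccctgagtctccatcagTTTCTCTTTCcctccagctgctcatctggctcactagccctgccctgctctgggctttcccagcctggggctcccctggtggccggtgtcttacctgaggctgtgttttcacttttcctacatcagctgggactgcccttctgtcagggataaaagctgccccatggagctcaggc
IFIH1: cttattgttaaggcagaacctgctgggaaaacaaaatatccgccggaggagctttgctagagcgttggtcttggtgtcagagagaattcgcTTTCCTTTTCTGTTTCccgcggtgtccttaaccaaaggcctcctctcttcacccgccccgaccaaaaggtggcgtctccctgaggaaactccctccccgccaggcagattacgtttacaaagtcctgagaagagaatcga
The IFNL1 window holds 2 matches that overlap, and so does the IFIH1 window. The IFNL2 and IFNL3 windows were identical at 249 of 250 bases, and their single difference was C31T, with the IFNL2 base first and positions counted from 1 at the 5′ end of the window.

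In the 250 bases before the RefSeq start, matches to this element began at positions -214 and -208 in IFNL1, at -176 in both IFNL2 and IFNL3, and at -159, -153 and -21 in IFIH1. It was searched on both strands, overlaps included, and was present in 3.02% of 35116 RefSeq promoters. Among the 9 genes of the set that the promoter table matched, 4 held it, and IFNLR1, IL10RB, IFNAR1, MAVS and TLR3 did not. IFNAR2 was not matched. Only the first listed promoter of each gene was counted, and the other listed promoter of IFNL3 held no match. The STAT-type element, TTC and GAA with 3 bases of any kind between them, which reads the same on both strands and was present in 6.57% of the promoters, was found in IFNLR1 and TLR3. A match is a match of letters and says nothing of whether a factor was bound in these cells.

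**Figure D1:**
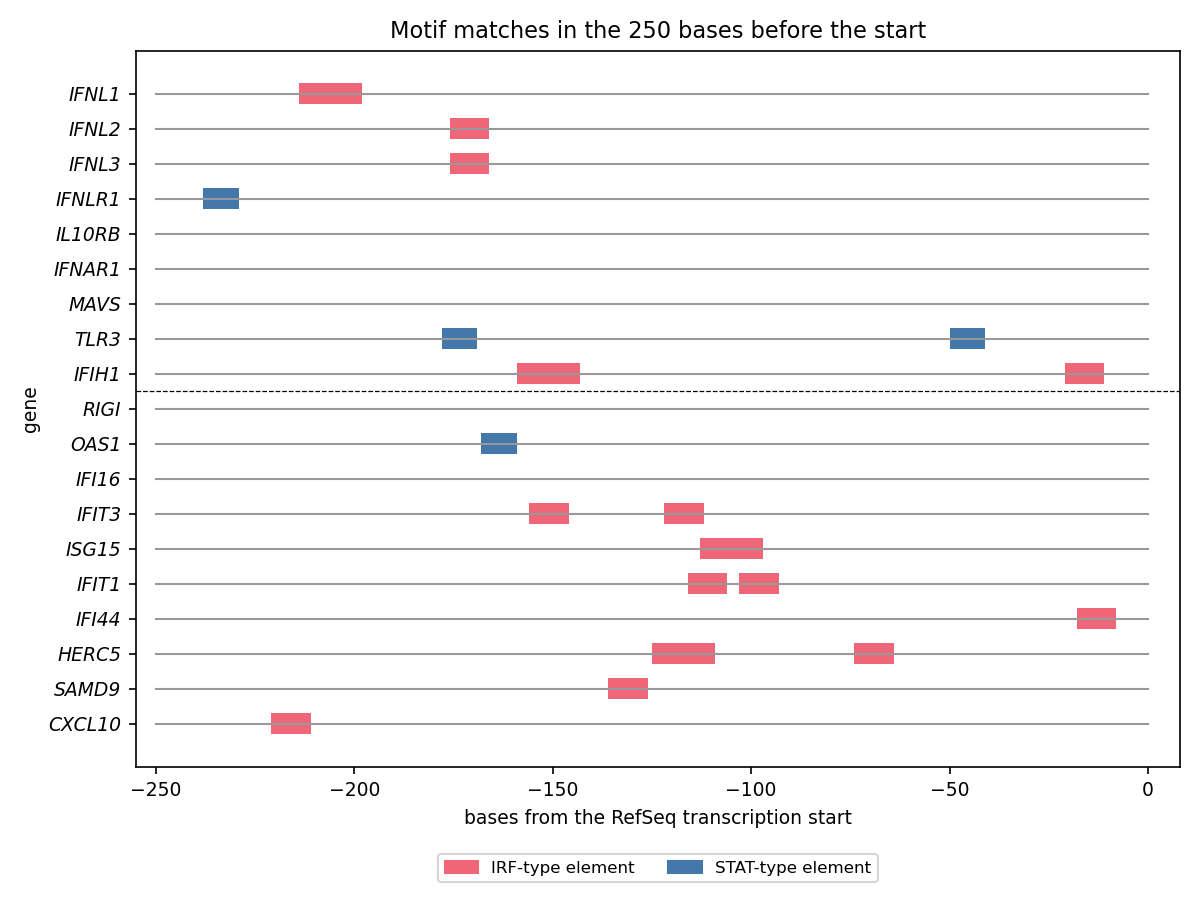
Each line is the 250 bases before the first listed RefSeq start of a gene, with distance from the start in bases on the horizontal axis. Red bars are matches to the IRF-type element and blue bars are matches to the STAT-type element. Genes above the dashed line are 9 of the 10 genes of the set. Those below it are the 10 with a listed promoter among the 14 other genes that rose in the late lines. Red bars are present in 4 of the 9 and in 7 of the 10, and the element was present in 3.02% of 35116 RefSeq promoters.

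No count of IFNL1 was found in the early lines, while every late sample held 18 or more. Its expected count was 0 in all 4 samples of the early lines, 55 in P3-1, 18 in P3-2, 72 in P4-1 and 118 in P4-2. In TPM, a level corrected for transcript length and for depth, these were 2.38 and 0.98 in P3 and 3.91 and 7.92 in P4. Both P4 samples were above both P3 samples, and the groups did not overlap.

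Because IFNL1 was at 0 in every P1 and P2 sample, its fold has only a lower bound. Set against the level that 3 counts would have had in the early lines (0.0945 CPM, which is the count scaled to depth with TMM factors), the mean of the 4 late samples was at least 23.0-fold higher. The bound was at least 11.9-fold for P3 and at least 34.1-fold for P4. From P3 to P4 the mean CPM of IFNL1 was 2.88 times as large, with a log2 fold change of 1.53 (SE 0.57), and with 1 sample left out that log2 value ran from 0.88 (without P3-2) to 2.67 (without P3-1).

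IFNL2 and IFNL3 were close to the limit of detection. IFNL2 had 1 count in P2-2 and 0 in the other P1 and P2 samples, followed by 4 and 3 counts in P3 and 10 and 2 in P4. IFNL3 had 2 counts in P1-2 and 0 in the others, followed by 5 and 2 counts in P3 and 9 and 7 in P4. For IFNL2 the summed counts went from 1 to 19 (ratio at equal depth 21.6, exact 95% interval 3.43 to 896), and for IFNL3 from 2 to 23 (ratio 13.1, interval 3.23 to 114), intervals that cover counting error only. Both genes failed the filter on low counts and had no fit. On the TPM scale the highest levels were 0.66 for IFNL2 and 0.70 for IFNL3, both in P4-1.

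Of the 305 counts of the 3 ligand genes in the late lines, 263 were from IFNL1, and the share of IFNL1 was 85.9% in P3-1, 78.3% in P3-2, 79.1% in P4-1 and 92.9% in P4-2. The early lines together held 3 counts of the 3 genes. The IFNL2 and IFNL3 transcripts are 97.9% identical over 621 aligned bases, so reads could have been split between them and the counts of each are uncertain. IFNL1 aligned with 85.5% identity to IFNL2 and 85.7% to IFNL3 over 481 columns of the alignment.

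**Figure D2:**
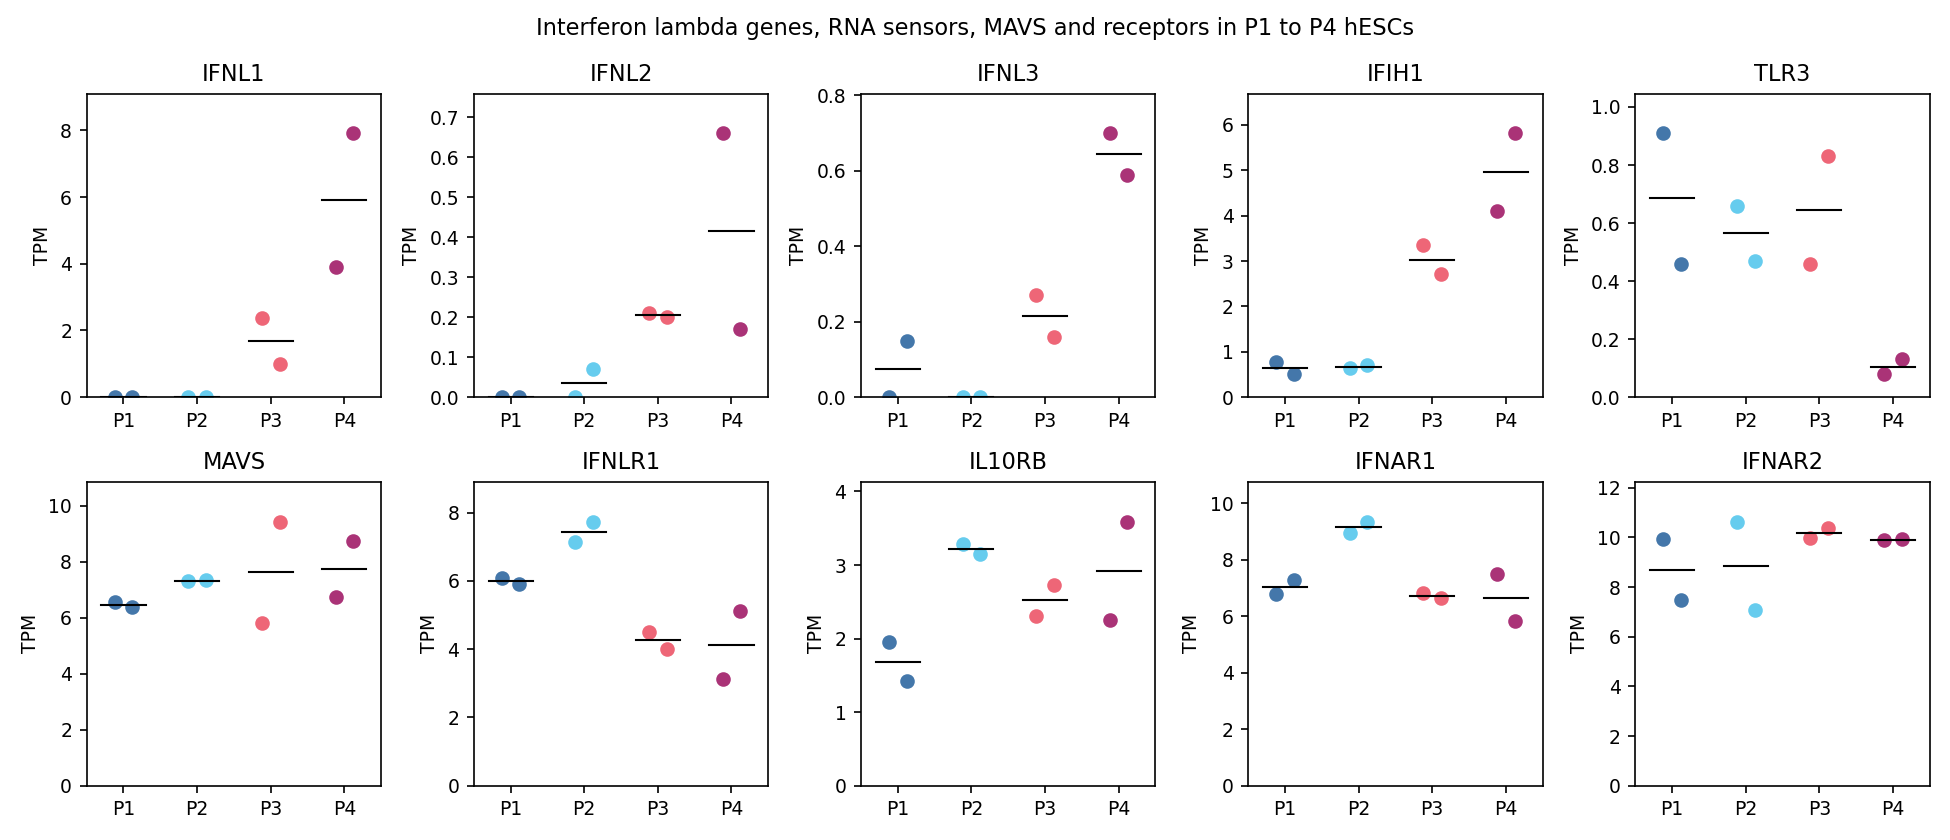
Points are TPM in each sample, the length-corrected level, by line from P1 to P4, and black bars are the means of the 2 samples; each panel has its own axis from 0. IFNL1 and IFIH1 were higher in all P3 and P4 samples, TLR3 was lowest in both P4 samples (0.08 and 0.13 TPM), and MAVS and the receptor genes were present in all 8 samples.

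IFIH1 encodes MDA5, the cytosolic sensor of long double-stranded RNA, and is itself interferon-inducible. It spans 162267079 to 162318703 on the minus strand of chromosome 2. Its level was 0.77 and 0.51 TPM in P1, 0.64 and 0.70 in P2, 3.35 and 2.71 in P3 and 4.10 and 5.82 in P4. The lowest late sample was above the highest early one. The mean was 1.72 ± 0.244 CPM (SD, n = 4) in the early lines and 10.6 ± 2.60 CPM (SD, n = 4) in the late lines, a ratio of 6.18, and the log2 fold change was 2.62 (SE 0.25). P1 and P2 had like levels, with a log2 fold change of -0.0003 (SE 0.32), and between the late lines the value was 0.44 (SE 0.30).

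TLR3, the endosomal receptor for double-stranded RNA, had another pattern. It spans 186069152 to 186088069 on the plus strand of chromosome 4. Its expected count was 64 and 39 in P1, 58 and 46 in P2, 49 and 60 in P3 and 6 in each P4 sample. P1, P2 and P3 overlapped, and both P4 samples lay below all the others. The mean CPM in P3 was 7.90 times that in P4, with a log2 fold change from P3 to P4 of -2.96 (SE 0.47). The level was low throughout, from 0.46 to 0.91 TPM in P1 to P3.

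MAVS, on the outer mitochondrial membrane, receives the signal of MDA5 and RIG-I. It spans 3846799 to 3876123 on the plus strand of chromosome 20. On the CPM scale it was 60.2 and 69.1 in P1, 65.0 and 67.6 in P2, 75.1 and 85.5 in P3 and 74.2 and 80.0 in P4, so that the groups did not overlap, although the difference was small (log2 fold change 0.27, SE 0.12). On the TPM scale the samples overlapped, with 6.37 to 7.35 in the early lines and 5.80 to 9.43 in the late lines.

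Both chains of the interferon lambda receptor were present in every sample. IFNLR1, the chain particular to type III interferon, spans 24154157 to 24187959 on the minus strand of chromosome 1. Its level was 6.08 and 5.91 TPM in P1, 7.13 and 7.74 in P2, 4.51 and 4.01 in P3 and 3.13 and 5.13 in P4. All 4 late samples were below all 4 early ones on this scale, and the ratio of the means was 0.625.

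The count scale gave no such separation for IFNLR1. Its CPM was 7.91 and 13.1 in P1, 8.86 and 9.92 in P2, 9.20 and 9.12 in P3 and 7.14 and 9.52 in P4, with a log2 fold change of -0.18 (SE 0.20). Part of the difference between the scales was the effective length that RSEM assigned to the gene. Its mean was 1794 bases in the early lines and 2351 bases in the late lines. Sample P1-2, at 2341 bases, lay within the range of the late samples. TPM divides by this length, which RSEM sets from the mix of transcripts it estimates, and whether that mix differed was not tested. The log2(TPM + 0.1) value for IFNLR1 was -0.68, on a scale where the median of all genes was -0.14.

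**Figure D3:**
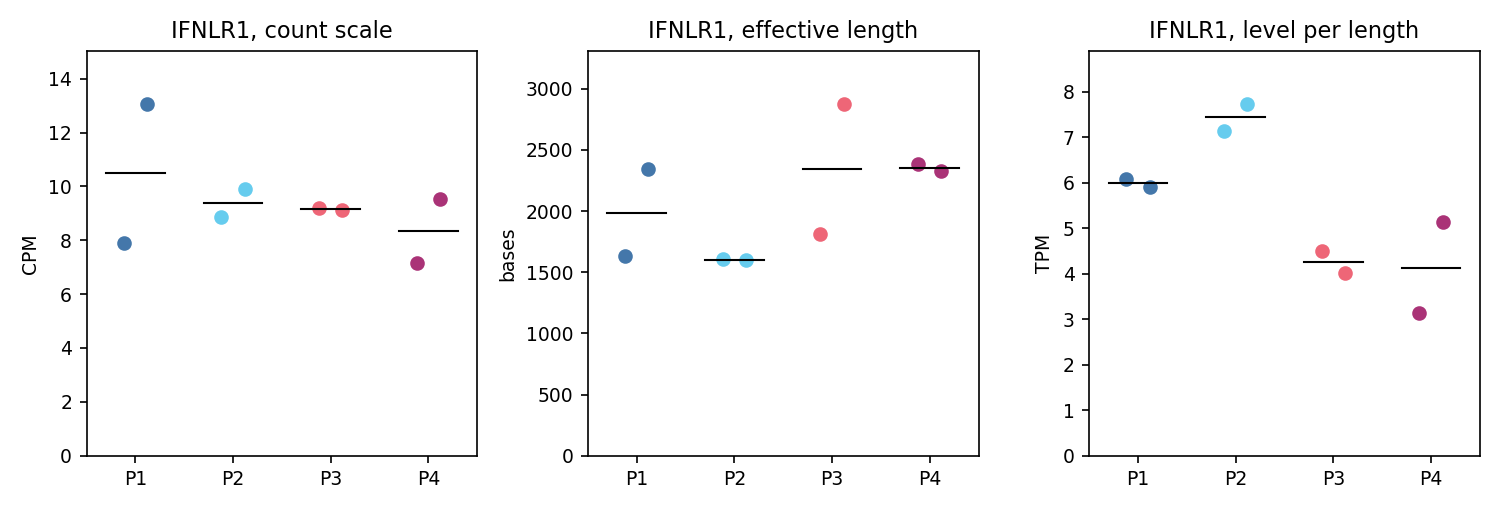
IFNLR1 in each sample by line, as CPM with TMM factors (left), as effective length in bases (middle) and as TPM (right), with black bars at the means of 2 samples and axes from 0. The 8 samples overlap in CPM, whereas in TPM the P3 and P4 samples (3.13 to 5.13) are all below the P1 and P2 samples (5.91 to 7.74).

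IL10RB, the chain shared with the IL-10 family, was the lowest of the 4 receptor genes. It spans 33266358 to 33310187 on the plus strand of chromosome 21. Its level was 1.95 and 1.42 TPM in P1, 3.29 and 3.15 in P2, 2.31 and 2.73 in P3 and 2.25 and 3.59 in P4. Both P1 samples were below the other 6 in TPM, but in CPM sample P3-2 (2.29) was below both of them (2.75 and 2.36), and the log2 fold change from P1 to P2 was 0.66 (SE 0.36). Between the late and early lines it was 0.18 (SE 0.29).

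The type I receptor genes lie beside IL10RB on the plus strand of chromosome 21, IFNAR2 from 33229901 to 33265675 and IFNAR1 from 33324477 to 33359862. IFNAR2, which carries the high-affinity site for the ligand, was at 7.08 to 10.6 TPM in the early lines and at 9.88 to 10.4 TPM in the late lines (log2 fold change 0.27, SE 0.16). IFNAR1, its signaling partner, was at 6.77 to 9.35 TPM in the early lines and at 5.82 to 7.50 TPM in the late lines. Its log2 fold change was 0.17 (SE 0.25). In TPM its level in P2 (8.94 and 9.35) was above that of every other sample, but in CPM it was not. On that scale it was 15.3 and 11.2 in P2 and 22.4 and 16.7 in P3. The sign for IFNAR1 differed between the scales, since log2(TPM + 0.1) gave -0.26, on a scale where the median of all genes was -0.14. Exons of IL10RB and IFNAR2 overlap those of AP000295.1, a readthrough gene on the same strand, so reads could have been shared with it. IFNAR2 also overlaps IL10RB-DT on the other strand, and the strand setting of the counting is not given in the sources used here.

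Across the set, the TPM ranges over the 8 samples were 7.08 to 10.6 for IFNAR2, 5.82 to 9.35 for IFNAR1, 5.80 to 9.43 for MAVS, 3.13 to 7.74 for IFNLR1, 1.42 to 3.59 for IL10RB and 0.08 to 0.91 for TLR3. Neighbours in this order overlapped, except that every value of TLR3 was below every value of IL10RB. In P4, IFNL1 (3.91 and 7.92 TPM) and IFIH1 (4.10 and 5.82 TPM) were within the range of the receptor genes, and in the early lines they were below all of them.

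Of the 10 genes, 8 passed the filter on low counts. With a log2 fold change beyond 1 and an FDR under 0.01, the call used throughout, 2 of these (IFNL1 and IFIH1) were higher in the late lines and 0 were lower, where 1.06% of 19499 tested genes were called higher and 1.14% lower. The genes were chosen on these samples, so nothing is read from that count. In CPM, 3 of the 8 had all late samples above all early ones (8.38% of tested genes) and 0 had them below (9.19%). In TPM, 2 were above (3.3%) and 1, IFNLR1, was below (9.13%). From P3 to P4, 1 of the 8 (TLR3) was called, against 0.815% of tested genes, and from P1 to P2 0 of the 8 were called, against 0% of tested genes.

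Within P3 the sample with the larger mitochondrial share, P3-1, had more IFNL1, while within P4 the sample with the smaller share, P4-2, had more. The part of the mitochondrial share in these levels was not tested. With P1-2, P3-1 and P4-1 all left out, the log2 fold change of IFIH1 was 2.47. That of MAVS was 0.36.

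The other interferon ligand genes were nearly absent. Of 18 type I and type II ligand genes, 16 had at most 3 counts in every sample, and none passed the filter. IFNB1, the interferon beta gene that IRFs also switch on, had 0 counts in each P1 and P2 sample, 9 and 2 in P3 and 5 and 4 in P4. IFNL1 had more counts than IFNB1 in each of these 4 samples. IFNE, named after its values were seen, had 4 to 8 counts in the early lines and 0 to 2 in the late lines.

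Among the 142 other genes, 114 were tested, and 14 rose and 1 fell in the late lines by edgeR's quasi-likelihood test, which is 13.2% of them against 2.2% of all tested genes. Most were interferon-stimulated genes, of which 13 of 42 tested rose, 0 fell and 29 did not pass. In CPM, 21 of the 42 had all late samples above all early ones (8.38% of tested genes). In 2 of the 42 all late samples were below (9.19% of tested genes). The median log2 fold change of these 42 genes was 0.68, and that of all tested genes was 0.01. With the 3 libraries of high mitochondrial share left out, 5 of the 15 genes passed (CCL5, IFIT1, IFIT2, IFIT3 and OAS2). Among the genes that rose, OAS1, OAS2, IFI44, OASL, SAMD9, CXCL10 and CCL5 had at most 3 counts in each early sample. They passed the filter on low counts only through the late samples, so the 13.2% is given as a description. Some genes stand on more than 1 list. The lists were written with earlier results of these samples known, so their counts are not independent evidence.

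IFIT1, IFIT2 and IFIT3, which bind foreign RNA or partner in doing so, all rose. IFIT2 had 1 to 13 counts in the early lines and 1181 to 3082 in the late lines (log2 fold change 8.47, SE 0.52, adjusted p = 5e-06 by edgeR). IFIT3 rose from 0.26 to 0.87 TPM to 12.6 to 33.9 TPM (log2 fold change 5.31, SE 0.37, adjusted p = 1.4e-05 by edgeR), and IFIT1 rose from 1.28 to 3.18 TPM to 46.0 to 104.7 TPM (log2 fold change 4.99, SE 0.31). These 3 genes passed in every alternative that was run.

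IFI44, OASL and CXCL10, a chemokine gene, had 0 counts in every P1 and P2 sample, as IFNL1 did. They were at least 36.8-fold, 32.8-fold and 13.3-fold higher in the late lines against the same floor of 3 counts. OAS1 and OAS2, which make the activator of RNase L on binding double-stranded RNA, went from 4 to 379 summed counts (ratio 108, interval 41.7 to 397) and from 7 to 605 (ratio 98.1, interval 47.3 to 245). The chemokine gene CCL5 went from 2 to 615 counts (ratio 349, interval 96.2 to 2890). Adjusted p-values by edgeR were between 1.2e-05 for OAS2 and 0.00127 for OASL over these 6 genes. All 6 passed the filter on low counts only through the late samples, so these p-values are given as a description.

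ISG15, a ubiquitin-like modifier, HERC5, its ligase, and SAMD9 also rose and were named after their values were seen, since the rule for naming stopped at 8 genes per list. ISG15 went from 26.8 to 44.9 TPM to 82.1 to 304.2 TPM (log2 fold change 2.43, SE 0.32, adjusted p = 0.0012 by edgeR), and SAMD9 went from 6 to 151 summed counts. HERC5 had a log2 fold change of 1.67 (SE 0.27, adjusted p = 0.0041 by edgeR), but it no longer passed without P1-1, P1-2, P2-2 or P4-1. Nor did it pass in the fits of log2(TPM + 1) or log2(TPM + 0.1). The rise did not extend to every gene of the list. RSAD2, an antiviral gene also named after its values were seen, had 3 to 8 counts in the early lines and 0 to 5 in the late lines, and IFI44L had at most 1 count in any sample.

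**Figure D4:**
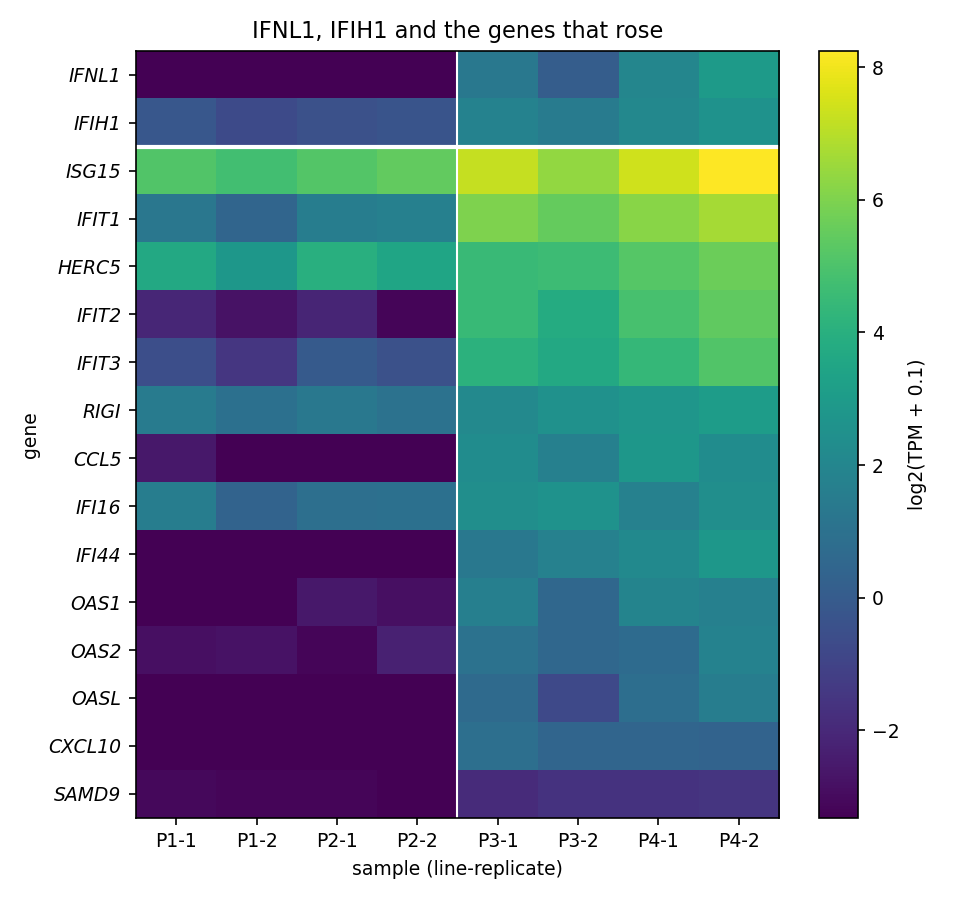
Colour is log2(TPM + 0.1) in each sample, with IFNL1 and IFIH1 above the white line and, below it, the 14 other genes that rose in the late lines, ordered by their mean level there. IFNL1, IFI44, OASL and CXCL10 are at the lowest colour in the 4 P1 and P2 samples, where they had 0 counts.

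Among the other RNA sensors, RIGI (the gene of RIG-I), OAS1 and OAS2 rose, 0 fell and 12 of 15 tested genes did not pass. RIGI went from 227 to 319 counts in the early lines to 624 to 804 counts in the late lines (log2 fold change 1.60, SE 0.19, adjusted p = 0.000601 by edgeR). It did not pass in the fits of log2(TPM + 1) or log2(TPM + 0.1), nor with the 3 libraries of high mitochondrial share left out. DHX58, the third gene of this helicase family, did not pass (0.75, SE 0.27, adjusted p = 0.108 by edgeR), nor did EIF2AK2 (-0.19), the gene of the kinase PKR, or ADAR (-0.06), whose product edits double-stranded RNA. Of 8 DNA sensor genes, 1 passed. It was IFI16 (log2 fold change 1.48, SE 0.26, adjusted p = 0.00676 by edgeR). IFI16 no longer passed when any 1 of P1-1, P1-2, P2-1, P2-2, P3-1 or P3-2 was left out or with a replicate block. Nor did it pass in the fits of log2(TPM + 1) or log2(TPM + 0.1).

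The signaling genes between sensor, ligand and response mostly did not pass. Of 25 adaptor, kinase and transcription factor genes, IFIT3 alone was called, and it stands there as a MAVS partner. The log2 fold changes were -0.19 for TICAM1, the TLR3 adaptor, 0.03 for TBK1, the kinase of the IRFs, -0.07 for IRF3 and 0.22 for IRF7. Of 14 JAK-STAT genes, 0 rose and 1 fell. The log2 fold changes were 0.51 for JAK1, -0.39 for TYK2, -0.27 for STAT2 and -0.11 for IRF9, with adjusted p-values by edgeR between 0.11 and 0.863. SOCS3, a feedback inhibitor of cytokine receptors, went from 1636 to 2574 counts in the early lines to 521 to 1035 in the late lines (log2 fold change -1.35, SE 0.24, adjusted p = 0.00724 by edgeR). This call was lost with a replicate block and when any 1 sample other than P4-2 was left out. It was also lost in the fits of log2(TPM + 1) and log2(TPM + 0.1). None of the 6 tested genes of other class II cytokine receptors and none of the 15 inhibitors of RNA sensing passed; by unadjusted p, 41 of the 114 genes were under 0.05 with edgeR and 44 with DESeq2, where 4967 and 5263 of all 19499 tested genes were.

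**Figure D5:**
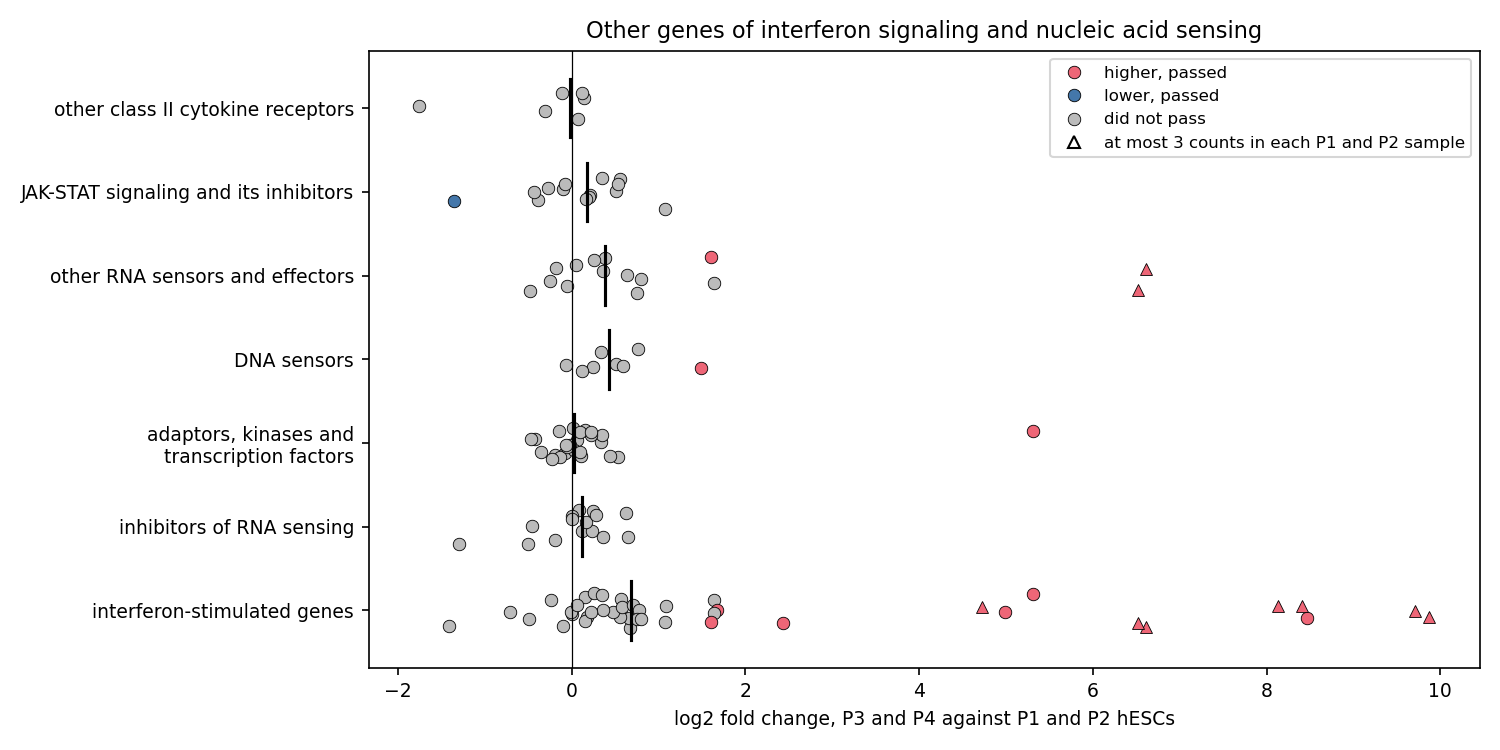
Points are the log2 fold changes of the tested genes of each list in the late against the early lines, red for genes that passed and were higher, blue for the 1 that was lower (SOCS3) and grey for those that did not pass, and black bars are list medians. Triangles mark genes with at most 3 counts in each P1 and P2 sample, whose fitted values depend on the prior count; the median was 0.68 for interferon-stimulated genes and between -0.02 and 0.42 for the other lists.

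Within a pair of lines, 2 samples stand against 2, so counts of calls cannot be set beside those of 4 against 4. From P1 to P2, 0 of the 114 genes passed with edgeR or with DESeq2, and 4 had an unadjusted p under 0.05 with edgeR. Of all 19499 tested genes, 0 passed with edgeR and 40 with DESeq2, and 1782 had an unadjusted p under 0.05 with edgeR. From P3 to P4, 2 genes rose, against 0.554% of tested genes. They were SOCS1, an inhibitor of JAK kinases (193, 185, 264, 271, 100, 102, 303 and 384 counts from P1-1 to P4-2), with a log2 fold change of 1.96 (SE 0.28, adjusted p = 0.00244 by edgeR), and TRIM22, an interferon-inducible ubiquitin ligase, with 1.79 (SE 0.30, adjusted p = 0.00776 by edgeR). TRIM22 had 1818 to 2850 counts in the early lines, 220 and 520 in P3 and 1223 and 968 in P4. Its counts in P4 were thus still below those in the early lines. In TPM, however, sample P4-2 (30.70) was level with P1-2 (30.63). SOCS1 no longer passed without P3-1, P3-2 or P4-2, and TRIM22 passed only without P3-2 among the fits that left out 1 sample.

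The genes most like IFNL1 over the 8 samples, by Pearson correlation of log2 CPM, were OASL (0.999), TSPY26P (0.994), IFIH1 (0.994), LINC01597 (0.990), IFIT1 (0.989), ZNF560 (0.988), INKA1 (0.987) and IFIT3 (0.987). These genes share with IFNL1 the step between early and late lines, and 115 of 19498 genes were above 0.95. TSPY26P and LINC01597 lie on the long arm of chromosome 20 (32186477 to 32190527 and 30278906 to 30288479 on the minus strand), the arm of the gain, whose part in their levels was not tested. Within the late lines, IFNL1 increased in the order P3-2, P3-1, P4-1 and P4-2. This order, picked after the IFNL1 values were seen, was shared by RIGI, IFIT2, IFIT3, IFI44, OASL and HERC5, that is by 6 of the 14 genes that rose, and by 7.46% of all tested genes.

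Markers of other cell types were compared because bulk RNA cannot tell more cells of a type from more RNA per cell. The 8 leukocyte markers summed to 1.60 to 2.73 TPM in the early lines and to 2.18 to 4.47 TPM in the late lines, with 2 of the 8 genes higher in all late samples and 1 lower. PTPRC, which marks all leukocytes, was at 0.18 TPM or less in every sample and CLEC4C, which marks plasmacytoid dendritic cells, at 0.09 TPM or less. The early sum was 12.7 to 19.0 TPM against a late sum of 6.44 to 12.2 TPM for 9 trophoblast and amnion markers. It was 64.2 to 76.7 against 33.9 to 91.4 TPM for 7 endoderm and mesoderm markers. For 5 neuroectoderm markers it was 95.9 to 116.1 against 54.1 to 79.4 TPM. For 6 fibroblast markers it was 461.8 to 631.3 against 492.8 to 778.4 TPM. The largest part of each sum came from 1 gene, in turn KRT7 (3.77 to 14.3 TPM over all samples), KDR (27.7 to 84.9), OTX2 (52.6 to 115.3) and THY1 (232.4 to 647.8). PAX6 was at 0.43 TPM or less, SOX1 at 0.14 or less, and LUM and DCN at 0.18 or less. The remaining fibroblast markers were present in every sample. COL1A1 was at 51.26 to 150.46 TPM, COL1A2 at 32.17 to 73.48 TPM and PDGFRB at 2.17 TPM or more. In these 4 lists, 0 genes were higher in all late than in all early samples. Lower were 1 trophoblast or amnion, 1 endoderm or mesoderm, 1 neuroectoderm and 2 fibroblast markers. Beside these and the leukocyte counts, 3.3% of all tested genes were higher and 9.13% lower in all late samples (TPM). The part of these markers in the IFNL1 and IFIH1 levels was not tested.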

How the data were processed

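Per the labels, RNA from 8 samples (P1 to P4 hESCs, 2 each) was made into TruSeq Stranded mRNA libraries. The submitters' processing notes name FastQC, Trim Galore, STAR 2.7.3a, RSEM 1.3.3 and GRCh38, and the annotation release and strand setting are not given in the sources used here. The authors deposited, per gene and sample, an expected count (not normalized, not always whole), a TPM value and an effective length in bases.

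Expected counts were rounded and fitted with edgeR 4.0.16 in R 4.3.3 (TMM, filterByExpr with the 4 lines as groups, 19499 of 60675 genes kept). The late lines (P3 and P4) were set against the early lines (P1 and P2) in 2 groups of 4, and P2 against P1 and P4 against P3 in 4 groups of 2. A call needed a log2 change of more than 1 in size and an FDR (Benjamini-Hochberg, over all tested genes) under 0.01. The SE is the log2 fold change over the square root of F. The study's tool, DESeq2 (1.42.0), and limma 3.58.1 on log2(TPM + 1) and log2(TPM + 0.1) were alternatives, with other filters, factors, models and left-out samples. The methods were tested on simulated data. A floor of 3 counts was 0.0945 CPM in P1 and P2 hESCs, and floors and intervals cover counting error only.

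The 10 genes and all lists were chosen with earlier results of these data known. Named genes were the 10, up to 8 called genes of each list by size of change, 14 signaling genes always named (the separate result of 1 is not reported here), genes called between P3 and P4 hESCs, and the 8 genes most correlated with IFNL1. Others are marked as named after their values were seen. Symbols matched 56558 identifiers, and sequences are from RefSeq (GRCh38.p14). Experiments other than RNA-seq were not analysed here.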

Additional observations from a re-analysis of the deposited data

Results flagged for a closer look

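In groups of 4 samples, 8 of 77 checked groups had 1 sample that stood apart. Its gap to its nearest neighbour, as a share of the group's range, exceeded Dixon's critical value. About 3.85 such groups would be expected with independent normal values. Each group pools 2 lines and some hold counts near 0, so nothing is read from the excess. In P1 and P2 hESCs, IFNL2 in P2-2, IFNL3 in P1-2 and CCL5 in P1-1 had a ratio of 1.0, because the other 3 samples were at 0 and the sample that stood apart held 1 or 2 counts. Among the receptor genes, IFNLR1 stood apart in P4-1 (ratio 0.850) at 7.14 CPM, where the other P3 and P4 samples were at 9.12 to 9.52 CPM. P4-1 had a mitochondrial share of 17.2%.

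Sample P1-2, with a mitochondrial share of 18.5%, stood apart from the other P1 and P2 samples for IRF9 (ratio 0.844, 9.42 CPM against 5.16 to 5.67) and TYK2 (ratio 0.891, 41.7 CPM against 24.0 to 25.5). OAS1 stood apart in P3-2 (ratio 0.903, 1.45 CPM against 3.48 to 3.81), the sample with the least IFNL1 among P3 and P4 hESCs. DHX58 stood apart in P2-2 (ratio 0.949, 3.33 CPM against 2.65 to 2.68). The part of the mitochondrial share in these values was not tested.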

How the results depend on the processing

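Of the 15 pathway genes called in P3 and P4 against P1 and P2 hESCs, all 15 were also called with DESeq2 (20 genes), without a filter (19), with 4 groups (21) and with an FDR under 0.05 and no minimum fold (23). Leaving out 1 sample gave 12 to 17 calls and limma gave 10 and 11. With the 3 libraries of high mitochondrial share left out, an alternative chosen after seeing the data that also leaves fewer samples, 5 remained (CCL5, IFIT1, IFIT2, IFIT3 and OAS2). Over all genes, the main 429 calls became 907 with DESeq2, 738 without a filter, 919 with 4 groups, 1470 with an FDR under 0.05 alone and 242 and 282 with limma. Leaving out samples gave 227 without P1-1, 231 without P2-1, 237 without P2-2, 281 without P4-1 and 61 without the 3 libraries. The replicate numbers did not pair the samples (correlations of replicate differences between -0.151 and 0.191 across lines). With a replicate block 13 pathway genes were called, without IFI16 and SOCS3, and 343 of all genes. From P1 to P2 hESCs, 0 pathway genes were called in any alternative, and over all genes 40 with DESeq2 and 273 without a filter.

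From P3 to P4 hESCs, the 2 pathway calls became 5 without a filter, 4 with an FDR under 0.05 alone, 1 (SOCS1) with a replicate block, 0 with limma on either scale, and 0 to 1 with 1 sample left out. Over all genes the 159 calls became 600 with DESeq2, 900 without a filter, 646 with an FDR under 0.05 alone, 74 and 87 with limma, and 69 without P4-2 and 85 without P3-1. On log2(TPM + 1) and log2(TPM + 0.1), the median of all genes moved by -0.09 and -0.14 between late and early lines. There the TLR3 value from P3 to P4 hESCs was -0.57 and -1.83, that of IFNLR1 between late and early lines was -0.58 and -0.68, and that of IFIH1 was 1.56 with a pseudocount of 1.

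The check of signs covered the pathway genes named here, not every gene of the lists. The named genes whose log2 fold change turned sign were uncalled between late and early lines, and the cause was not tested. With limma they were DHX58 (-0.026 and -0.037), IRF7 (-0.019 and -0.031), TBK1 (-0.15 and -0.16) and SOCS1 between late and early lines (-0.15 and -0.21), the last of which was also -0.093 with 4 groups. With 1 sample left out, the range was -0.22 to 0.48 for SOCS1 (negative without P4-1, -0.011, and P4-2), -0.10 to 0.096 for TBK1 (negative also without P2-2, -0.036), -0.12 to 0.0052 for ADAR (positive without P2-2), -0.20 to 0.033 for IRF3 (positive without P4-2 and P1-2, 0.0032), -0.77 to 0.071 for TICAM1 (positive without P3-1) and -0.29 to 0.13 for IRF9. With the 3 libraries left out, IRF9 was 0.12 and TICAM1 0.26, and among the receptor genes, given without p-values, IFNLR1 was 0.06, IL10RB -0.11 and IFNAR1 -0.12.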
